A study of Mus musculus with 2 samples.

Results

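The genes described here are 32 stem and differentiating spermatogonial genes, taken by name as a fixed list from the GENCODE M21 annotation of GRCm38 (mm10), with the H1t peaks at their starts, in their exons and introns and in their 10-kb flanks. They are 32 of 21938 protein-coding genes on chromosomes 1 to 19, X and Y, all 32 symbols matched a single coding gene, and 0 of them lie on X or Y. The peaks come from 1 chromatin immunoprecipitation library of spermatogenic cells isolated from testes of ICR mice, an outbred stock, at 6 weeks of age, made with an enzymatic ChIP kit and a rabbit polyclonal antibody raised in-house against H1t. The series also has an input library of the same cells with no antibody, which was not analysed here. The number of mice is not given in the sources used here, and the cells are labelled as germ cells, with no sorting by stage in the labels. The list holds no expression values, so the share of spermatogonia among the cells was not measured, and fewer cells carrying H1t at a gene cannot be told apart from less H1t per cell.

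H1t is a testis-specific linker histone, a protein that binds the nucleosome where DNA enters and leaves it. It is known to accumulate in pachytene spermatocytes and to persist into early spermatids, that is, after the spermatogonial stage at which most of the genes below are active. Spermatogonia divide on the basement membrane of the seminiferous tubule. Their stem cells respond to GDNF from Sertoli cells through the receptor pair GFRA1 and RET, and differentiation is driven by retinoic acid and by KIT signalling. Which of the cells in the mixture a peak came from was not measured.

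The library's list had 76434 peaks on the chromosomes used. Each carries the authors' own score, with a lowest value of 50, a median of 73.99 and an upper quartile of 108.4 on these chromosomes, and the score serves here only to describe and rank peaks within this list. The 32 genes had 50 peaks with scores from 50.1 to 260.2 and a median of 69.9, close to that of the list, and 10 of the 50 lay above the upper quartile. With 1 library there is no replicate, so every value below describes this library and no p-value is given. Distances run from the peak midpoint to the start of the gene record, positive in the direction of transcription, and each peak was counted once per gene, under the first of start (within 1 kb), exon, intron and flank that held its midpoint.

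A larger share of spermatogonial genes than of coding genes at large had an H1t peak at the start, and a smaller share had one in the 10 kb upstream. A start-site peak was found at 12 of 32 genes (37.5%), against 23.0% of all coding genes. An intron peak was found in 13 genes (40.6% against 28.0%), but this difference depends on the assignment: with basic transcripts it was 10 genes (31.2% against 28.0%), with any overlap 8 genes (25% against 23.2%), and with peaks above the list's median score 6 genes (18.8% against 16.3%). Exons outside the start window held a peak in 6 genes (18.8%), near the 17.4% of all coding genes, so exons do not set the list apart. By midpoint from the gene record start, the upstream 10 kb held a peak at 0 of 32 genes, against 18.9% of all coding genes. It was 1 gene with any overlap, where a peak of score 60.48 reaches from -10633 to -9907 bp at Ret (19.2% of coding genes), and 3 genes with basic transcripts, Ccnd2, Egr2 and Nanos3 (9.38% against 18.8%). The downstream 10 kb held a peak at 6 genes (18.8% against 24.8%), so that either flank held one at 6 genes (18.8% against 38.0%). Any peak was present at 25 genes (78.1% against 67.9%), and 7 genes had 0. With peaks above the list's median score, 14 of 32 genes had any, near the 42.4% of coding genes. The median density was 2.83 peaks per 100 kb of gene and flanks, against 2.43 over all coding genes, with a median gene length of 17.6 kb against 17.4 kb. These are counts over 32 genes chosen for their biology, and the differences from the background were not tested.

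**Figure D1:**
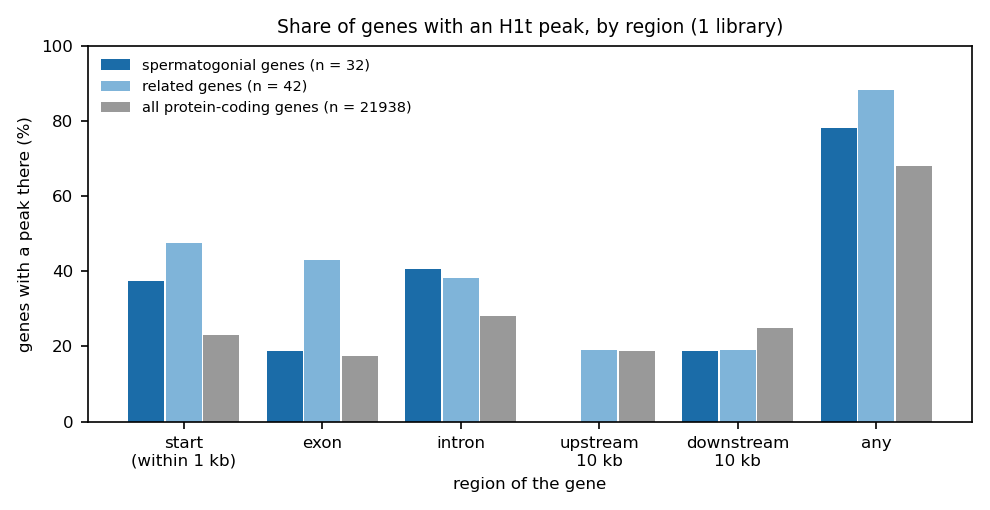
Share of genes with at least 1 H1t peak midpoint in each region (vertical axis, percent), for the 32 spermatogonial genes, 42 related genes and 21938 protein-coding genes. The spermatogonial bar is at 37.5% at the start against 23.0% for all coding genes, and at 0 in the upstream flank against 18.9%.

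Of the 25 genes with a peak, 14 had a single peak and 11 had more. The same split was not counted over all coding genes. A start-site peak stood alone at 6 genes (Id4, Lin28a, Lin28b, Neurog3, Thy1 and Utf1) and together with peaks elsewhere at 6 others (Ccnd2, Egr4, Kit, Rarg, Shisa6 and Zbtb16). Introns alone held the peaks of 6 genes and flanks alone those of 3. The densest genes were Rarg (9.39 peaks per 100 kb), Nanos2 (9.28), Egr4 (8.90), Sall4 (7.57) and Egr2 (7.49). Among these, Nanos2 (1.563 kb) and Egr4 (2.469 kb) are short, which raises their density. Both peaks of Nanos2 and 1 of the 2 peaks of Egr4 lie in a neighbouring gene.

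**Figure D2:**
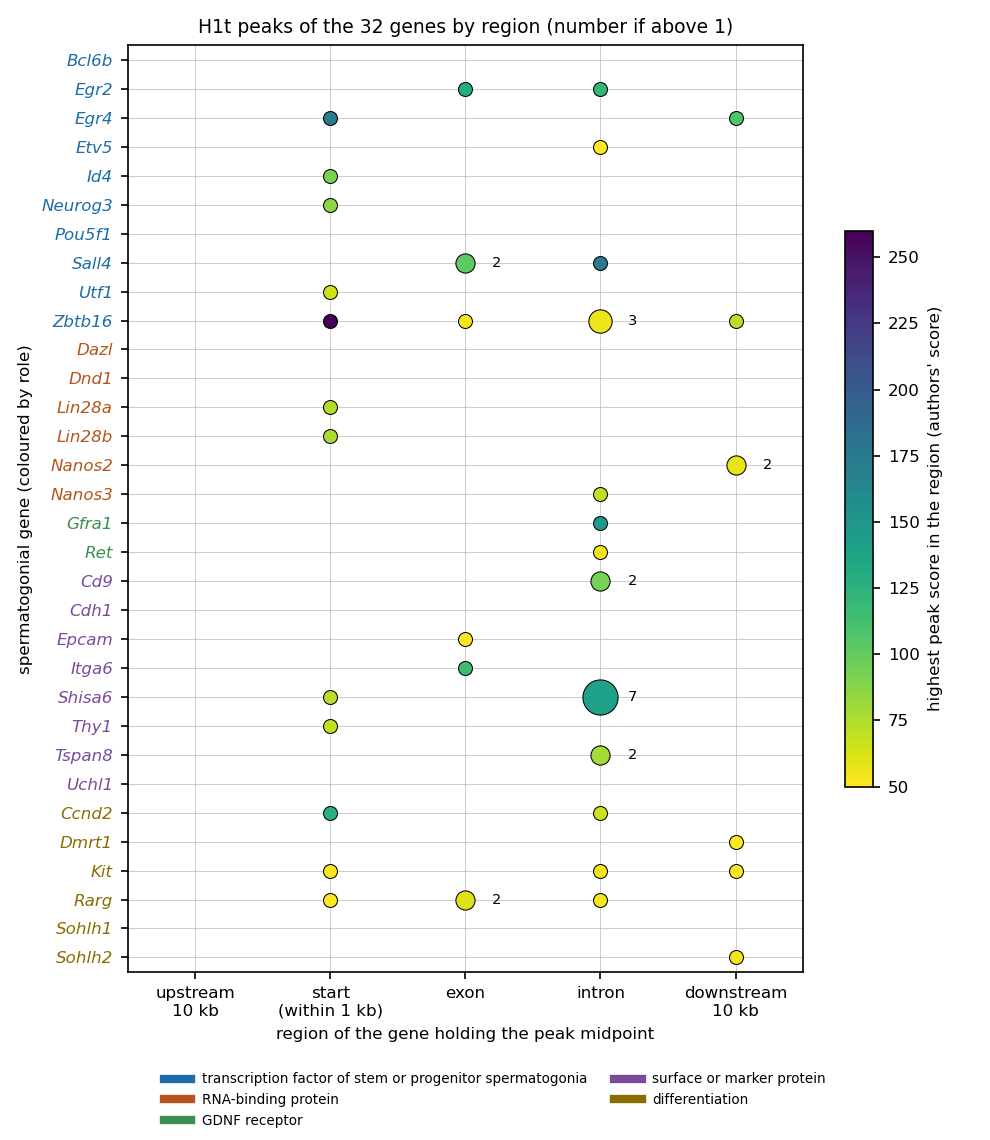
Each row is a gene, coloured by role, and each column a region. A circle marks at least 1 peak there, its area gives the count (printed where above 1), and its colour the highest authors' score. Circles stand at the start of 12 genes, the upstream column is empty, and 7 rows hold none.

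Among the 12 start-site peaks, the highest score belonged to Zbtb16, which encodes the zinc finger factor PLZF required for stem cell maintenance. Its peak at chr9:48834608-48836504 was 1897 bp wide with a score of 260.2, higher than 97.1% of all peaks, and its midpoint lay 666 bp downstream of the start. Egr4, a zinc finger factor of the early growth response family, followed with 172.7 over 1603 bp at chr6:85512297-85513899 (midpoint at 491 bp), and the cell cycle gene Ccnd2, which encodes cyclin D2, with 126.3 over 849 bp at chr6:127151706-127152554 (63 bp). The other 9 scores lay between 50.31 and 92.61, so only these 3 of the 12 were above the upper quartile of the list. Over the 12 genes the median of the best start score was 75.8, with quartiles of 67.9 and 101.0. Over the 5042 coding genes with a start peak it was 70.6, with quartiles of 57.9 and 97.0.

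Middle scores belonged to 6 genes. Id4, an inhibitor of DNA binding by helix-loop-helix factors that marks stem cells, had 92.61 at chr13:48261711-48262494 (784 bp wide, midpoint at 874 bp). Neurog3, a helix-loop-helix factor of progenitors, had 85.77 at chr10:62132688-62133190 (503 bp wide, -151 bp). Lin28b and Lin28a, whose proteins block maturation of let-7 microRNAs, had 77.25 at chr10:45486347-45487030 (684 bp wide, -293 bp) and 74.40 at chr4:134018343-134018992 (650 bp wide, 174 bp). The paralogues thus lay within a few points of score of each other. Shisa6, a membrane protein gene of GFRA1-positive cells, had 72.79 at chr11:66525107-66525711 (605 bp wide, 555 bp), and Thy1, a cell surface glycoprotein gene, had 68.95 at chr9:44043319-44043958 (640 bp wide, 254 bp).

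The lowest start scores were those of Utf1, a chromatin factor of undifferentiated cells (64.82 at chr7:139944126-139944743, 618 bp wide, midpoint at 645 bp), Kit, the stem cell factor receptor (52.42 at chr5:75574523-75575012, 490 bp wide, -149 bp), and Rarg, the retinoic acid receptor gamma (50.31 at chr15:102257356-102257866, 511 bp wide, -94 bp). Kit and Rarg sit just above the lowest score in the list. With peaks above the list's median score alone, 7 of 32 genes kept a start-site peak, against 10.4% of coding genes, and Kit, Rarg, Shisa6, Thy1 and Utf1 lost theirs.

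Most of the 12 peaks covered the start itself or the sequence just after it. The midpoint lay downstream of the start in 8 genes (66.7%), against 79.1% of the 5042 coding genes with a start peak, and upstream in Kit, Lin28b, Neurog3 and Rarg. The peak spanned the start in 9 genes, while at Id4, Utf1 and Shisa6 it began 483, 337 and 253 bp downstream of it. At 5 genes the start peak reached into coding sequence of the selected transcript: it covered 780 coding bases of Egr4, 521 of Utf1, 403 of Shisa6, 270 of Id4 and 31 of Lin28a. Spanning of the start and reach into coding sequence were not counted over all coding genes, so neither is read as a trait of the list. Other annotated genes share some of these places and cannot be told apart from the gene itself. The midpoint at Neurog3 also falls in the coding gene Fam241b, that at Ccnd2 in the antisense gene 9330179D12Rik, that at Id4 in the antisense gene A330033J07Rik and that at Lin28a in the noncoding gene Gm13061.

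**Figure D3:**
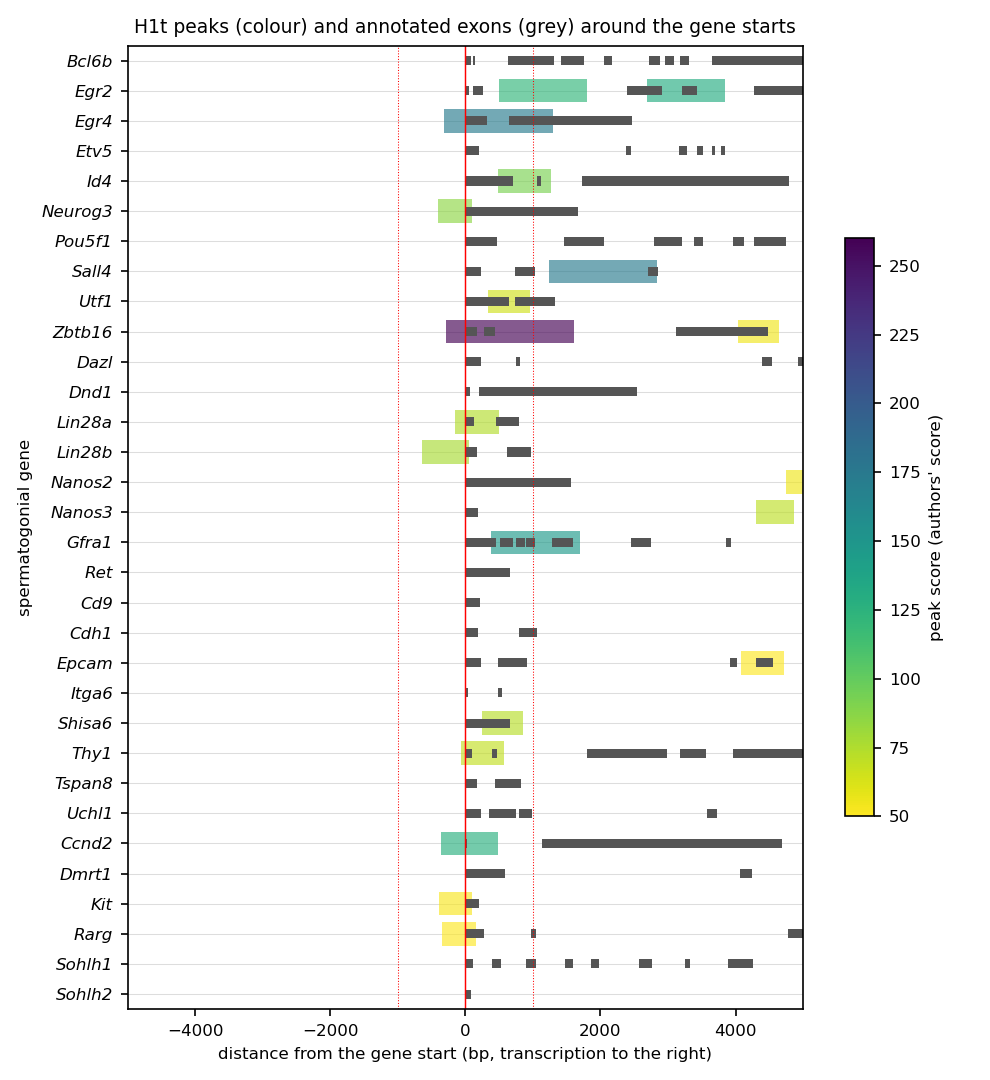
Peaks (coloured bars, colour by authors' score) and annotated exons (grey) within 5 kb of the start of each of the 32 genes, drawn by distance from the start with transcription to the right; dotted lines mark 1 kb. Zbtb16 and Egr4 have the widest start peaks, and no bar lies between 5 kb and 1 kb upstream of any start.

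Start-site sequences from RefSeq (GRCm38.p6) were held for 21 of the 32 genes (65.6%), under the 80% needed to compare the list by them, so that comparison is void and single sequences are shown only to let the covered sequence be read. The following 6 of the 21 were overlapped by a peak (28.6%). The share over 16538 coding genes was 18.8%, given for scale only. Each is written 5′ to 3′ on the gene's strand, cut to bases before the RefSeq start and outside exons of coding genes, with the dinucleotide CG in capitals. CG is the same on both strands, and 95.1% of the 16538 start-site sequences of 300 bases for coding genes hold it at least once, with a median of 14. The median was 23 over those of genes with a start peak and 10 over those without. The counts printed below are over the shorter cut stretches and cannot be set against these medians. Over the full 300 bases the 6 sequences hold 30 CG (Egr4), 20 (Kit), 19 (Neurog3), 12 (Rarg), 12 (Gfra1) and 10 (Lin28a). For Gfra1, the distance beyond 1 kb is from the gene record start (1038 bp). The RefSeq start of this sequence lies 511 bp into the gene record, as does that of the selected transcript, 527 bp from the peak midpoint.
Egr4, chr6:85513590-85513839, minus strand, 28 CG, 250 of 250 bases under the peak: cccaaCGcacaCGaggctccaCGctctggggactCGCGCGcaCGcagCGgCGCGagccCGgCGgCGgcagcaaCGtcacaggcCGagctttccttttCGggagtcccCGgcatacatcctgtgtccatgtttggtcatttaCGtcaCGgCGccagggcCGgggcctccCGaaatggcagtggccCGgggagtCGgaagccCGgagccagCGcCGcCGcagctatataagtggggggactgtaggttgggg
Neurog3, chr10:62132840-62133089, plus strand, 18 CG, 250 of 250 bases under the peak: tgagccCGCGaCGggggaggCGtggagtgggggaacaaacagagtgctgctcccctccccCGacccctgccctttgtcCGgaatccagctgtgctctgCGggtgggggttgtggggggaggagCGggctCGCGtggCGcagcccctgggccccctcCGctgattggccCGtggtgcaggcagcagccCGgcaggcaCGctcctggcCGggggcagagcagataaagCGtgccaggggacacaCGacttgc
Kit, chr5:75574737-75574915, plus strand, 10 CG, 179 of 179 bases under the peak: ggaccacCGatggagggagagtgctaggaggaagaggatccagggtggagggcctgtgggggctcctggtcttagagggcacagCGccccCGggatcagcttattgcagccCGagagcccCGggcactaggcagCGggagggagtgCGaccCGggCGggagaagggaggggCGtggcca
Rarg, chr15:102257523-102257772, minus strand, 11 CG, 250 of 250 bases under the peak: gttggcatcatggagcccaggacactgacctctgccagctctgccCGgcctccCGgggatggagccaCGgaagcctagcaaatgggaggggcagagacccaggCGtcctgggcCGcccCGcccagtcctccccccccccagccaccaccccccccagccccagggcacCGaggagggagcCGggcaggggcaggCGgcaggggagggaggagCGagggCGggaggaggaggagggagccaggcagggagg
Lin28a, chr4:134018842-134019066, minus strand, 6 CG, 151 of 225 bases under the peak: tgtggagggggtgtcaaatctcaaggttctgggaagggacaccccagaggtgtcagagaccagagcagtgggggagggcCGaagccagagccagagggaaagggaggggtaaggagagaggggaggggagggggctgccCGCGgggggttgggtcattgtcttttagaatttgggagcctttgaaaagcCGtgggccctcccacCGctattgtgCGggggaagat
Gfra1, chr19:58455399-58455460, minus strand, 2 CG, 62 of 62 bases under a peak whose midpoint lies beyond 1 kb: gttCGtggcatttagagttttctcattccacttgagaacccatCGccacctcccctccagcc

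For contrast, these belong to Etv5, an ETS factor induced by GDNF, and to Dazl, an RNA-binding protein of germ cells, which had the highest GC content of the 300-base sequences among genes with no peak reaching within 1 kb of the start (74.0% and 68.7%). Over the full 300 bases Etv5 holds 37 CG and Dazl 28, more than the cut stretches printed here.
Etv5, chr16:22439720-22439820, minus strand, 7 CG, 0 of 101 bases under a peak: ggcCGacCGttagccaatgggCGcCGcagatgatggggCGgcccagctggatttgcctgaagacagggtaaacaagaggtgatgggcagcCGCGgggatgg
Dazl, chr17:50293637-50293870, minus strand, 19 CG, 0 of 234 bases under a peak: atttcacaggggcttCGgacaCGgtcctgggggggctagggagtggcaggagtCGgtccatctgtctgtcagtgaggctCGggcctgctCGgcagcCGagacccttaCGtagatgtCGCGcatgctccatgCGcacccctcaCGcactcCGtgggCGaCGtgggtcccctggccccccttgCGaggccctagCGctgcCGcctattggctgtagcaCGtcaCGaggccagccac

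First-exon GC content, which was available for all 32 genes and was added after the files were seen, gave a fuller view. All coding genes were placed in 5 classes of equal size by the GC content of the first exon of a selected transcript. The share with a start-site peak was 4.56%, 11.1%, 23.8%, 35.4% and 40.1% from the lowest class to the highest. Spermatogonial genes were frequent in the class from 63.6% to 70.3%, which held 14 of the 32, and 8 of those 14 had a start-site peak. The other classes gave 1 of 3, 1 of 5, 1 of 7 and 1 of 3. Had each gene the share of its class, the 32 genes would have 8.51 start-site peaks (26.6%), between the 23.0% of all coding genes and the 12 observed. Lin28b had a start peak and a first exon of 46.4% GC, in the lowest class. That exon belongs to the selected transcript, which begins 16194 bp downstream of the gene record start where the peak lies. Itga6 (74.3%, in the highest class) was counted without a start-site peak, though its peak midpoint lay 121 bp from the start of that exon. The class counts thus pair exons and peaks of different starts in some genes. The other genes above 63.6% without a start-site peak were Etv5 (78.3%), Sohlh2 (70.1%), Bcl6b (70.0%), Cdh1 (68.2%), Dazl (66.5%), Dmrt1 (64.6%) and Ret (64.4%). Most coding genes of these classes had none either, as the shares above show.

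**Figure D4:**
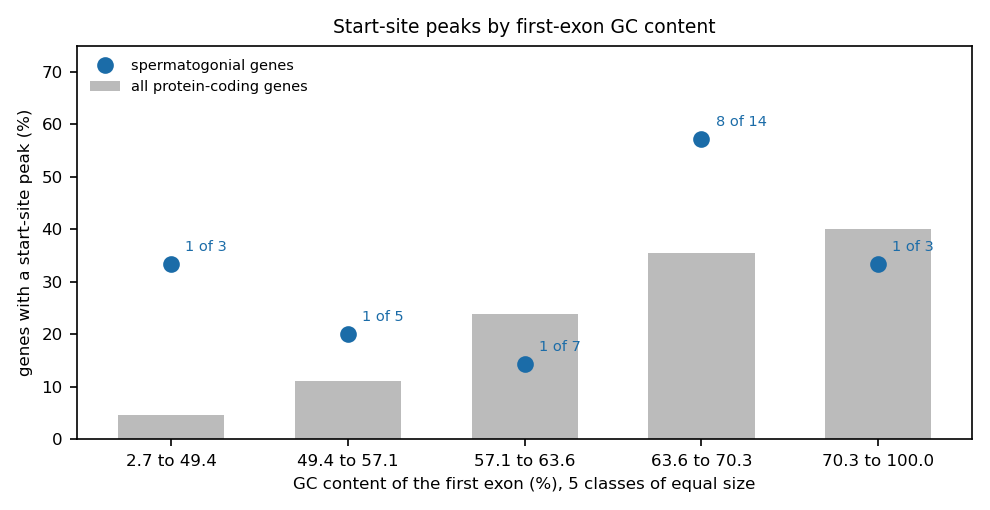
Share of all protein-coding genes with a start-site peak (grey bars) in 5 classes of first-exon GC content (horizontal axis, percent), and the share among spermatogonial genes (points, with counts). The grey bars run from 4.56% to 40.1%, and the points rest on 3 to 14 genes each.

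Genes have several annotated starts, and the place of the peak depends on which is taken. Of the 50 peaks, 19 lay within 1 kb of some annotated transcript start of their own gene, 7 of them outside the start window of the gene record. The same count was not made for the peaks of all coding genes. Itga6, the alpha subunit of a laminin-binding integrin used to enrich stem cells, is the clearest case. Its peak of score 114.9 and width 941 bp at chr2:71786629-71787569 lies 41483 bp into the gene record and counts as exonic, but its midpoint is 121 bp downstream of the selected transcript's start, over exon 1, where it covered 161 bases of 5′ UTR and 182 coding bases. Gfra1, the GDNF coreceptor, had a peak of 146.4 at chr19:58454218-58455525, with its midpoint 1038 bp from the gene record start, just outside the window, and 527 bp from the start of the selected transcript. Egr2, a zinc finger factor of the same family as Egr4, had a peak of 121.5 at chr10:67535980-67537280, 1155 bp downstream of the gene record start and at -1239 bp from that of the selected transcript. Conversely, the start peak of Lin28b lies at -16487 bp from the selected transcript's start, and that of Ccnd2 at -1070 bp. With the start of any annotated transcript, 16 of 32 genes had a start-site peak (30.0% of all coding genes), and Egr2, Gfra1, Itga6 and Sall4 were added.

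The transcription factors of stem and progenitor cells held the 3 highest scores among the 50 peaks, at Zbtb16, Sall4 and Egr4. Sall4, a zinc finger factor of undifferentiated spermatogonia, had 3 peaks and 46.3% of its coding sequence under them. The peak of highest score, 173.5 over 1596 bp at chr2:168765104-168766699, lay in the first intron of the selected transcript, 2042 bp from the start, above 91.0% of all peaks. Its midpoint was also at -655 bp from another annotated start of Sall4, and within 1 kb of the start of the noncoding gene Gm14261. Peaks of 102.2 at chr2:168754318-168755069 (752 bp wide, midpoint at 13250 bp) and 92.65 at chr2:168755801-168756643 (843 bp wide, 11721 bp) lay over exon 2 of 4, where they covered 636 and 843 coding bases. Egr2 had a second peak, of 130.8, at chr10:67538170-67539321 (1152 bp wide, midpoint at 3270 bp) across exon 1 of the selected transcript and the intron after it. Egr4 had 54.4% of its coding sequence and 52.4% of its gene body under its start peak. These 3 genes, with Zbtb16, account for all stem and progenitor factors with a score above the upper quartile of the list.

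Zbtb16 carried 6 peaks over 181.9 kb, but only the start peak was strong. An exonic peak of 54.29 at chr9:48831583-48832180 (598 bp wide, midpoint at 4341 bp) covered 438 coding bases of exon 2 of 7. Intron peaks of 55.97, 50.31 and 51.91 lay 13164, 54079 and 100545 bp from the start. A peak of 72.34 lay 4901 bp beyond the gene's end. Etv5 had 1 peak, of 51.00, in an intron 30139 bp from the start. Of the 10 factors, 5 had a start-site peak, against 23.0% of all coding genes. Bcl6b, a repressor induced by GDNF, and Pou5f1, the pluripotency factor OCT4, had 0 peaks within 10 kb.

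**Figure D5:**
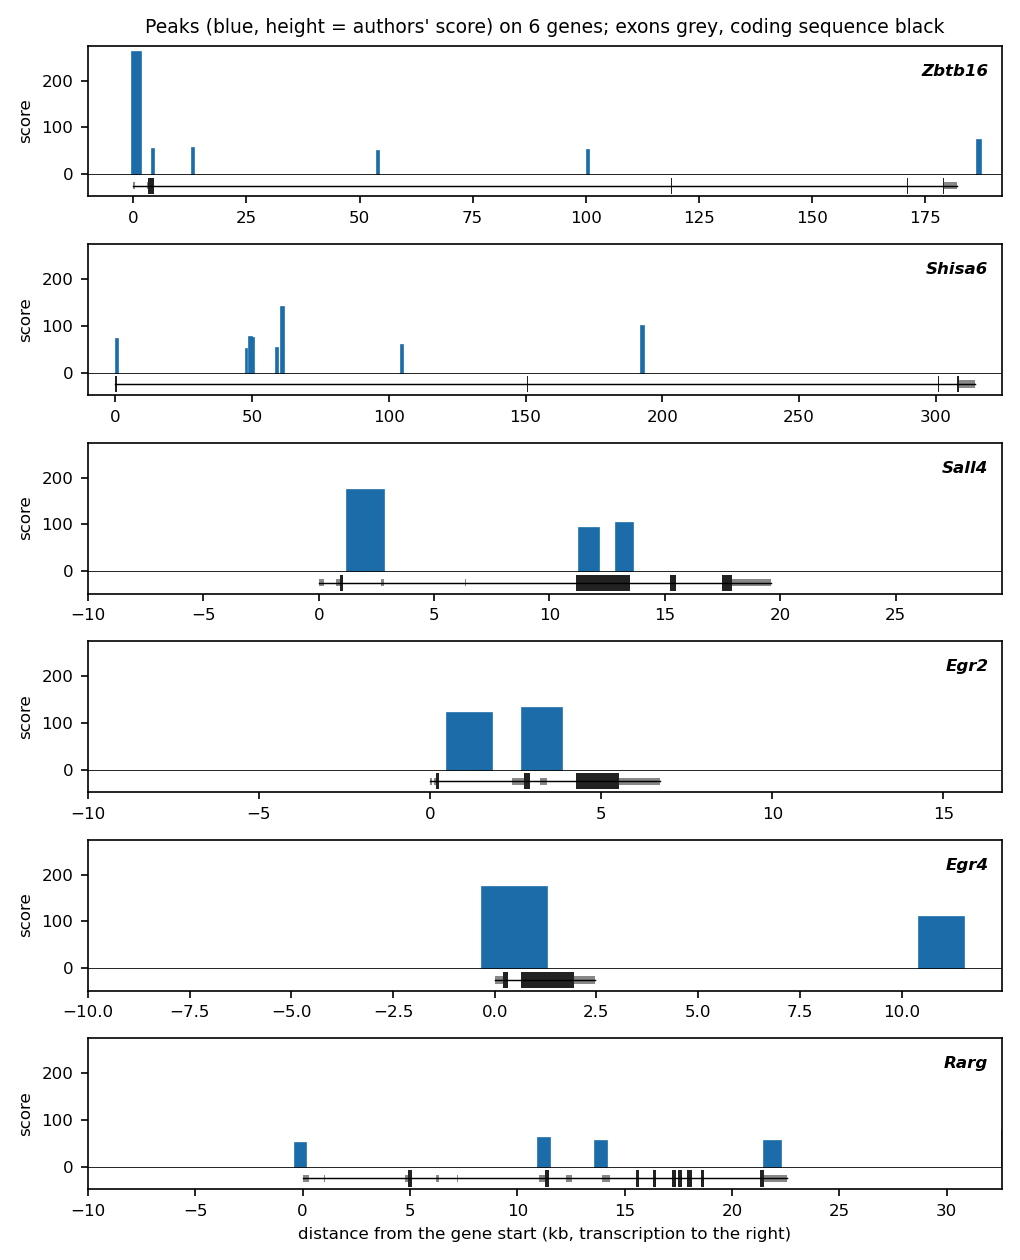
Peaks (blue, height by authors' score) along Zbtb16, Shisa6, Sall4, Egr2, Egr4 and Rarg with 10 kb on each side, by distance from the gene start in kb; annotated exons are grey and coding sequence black. The Zbtb16 start peak reaches 260.2, the Sall4 peaks lie over intron 1 and the long coding exon, and 5 Shisa6 peaks lie together near 50 to 60 kb.

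Among the RNA-binding proteins, both Lin28 genes had a start-site peak. An exon peak was found in 0 of 6 genes, against 17.4% of all coding genes, and 6 genes are too few to read this as a trait. Nanos2, which maintains stem cells, had 0 peaks in its body. Its 2 flank peaks, of 55.74 and 56.57, lay 3448 and 8321 bp beyond its end inside Mypop, a neighbouring coding gene. Nanos3 had a peak of 70.82 at chr8:84180357-84180913, which falls in an intron of the gene record but at -4083 bp from the selected transcript's start. Dazl and Dnd1, a partner of NANOS proteins in mRNA control, had 0 peaks. Neither Nanos gene of the list therefore had a peak over its coding sequence, and the nearest peak to the start of Dazl lay 91.5 kb away.

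The GDNF receptor genes had 1 peak each. That of Gfra1 is described above. The peak of Ret, the signalling receptor tyrosine kinase, was weak (54.11 at chr6:118174889-118175424) and lay 22562 bp from the start across exon 9 of 20, where it covered 111 coding bases. Over 220.3 kb, Gfra1 had the lowest density of all genes with a peak, 0.416 per 100 kb.

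Surface and marker proteins ranged from 8 peaks to 0. Shisa6, at 314.2 kb the longest gene of the list, had 7 intron peaks besides its start peak. Of these, 5 lay between 48033 and 61089 bp from the start, with gaps of 1376, 1088, 8686 and 1906 bp between midpoints and scores of 50.10, 76.98, 74.78, 51.96 and 140.4. The other 2 lay at 104874 bp (59.30) and 192797 bp (99.37). Its density of 2.39 per 100 kb was nevertheless close to the 2.43 of all coding genes. Tspan8 and Cd9, tetraspanin genes, had 2 intron peaks each, of 70.80 and 78.04 and of 93.20 and 55.22. Both Tspan8 midpoints also fall in the antisense gene 4930422I22Rik. Epcam, an epithelial adhesion molecule gene, had 1 peak of 50.35 at chr17:87640060-87640701 (642 bp wide, midpoint at 4401 bp) over exon 4 of 10, where it covered 241 coding bases. Cdh1, which encodes E-cadherin, and Uchl1, a ubiquitin hydrolase gene, had 0.

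Genes of differentiation had weak peaks apart from Ccnd2. Kit had 3 peaks of nearly equal score: 52.42 at the start, 52.53 in an intron at 16843 bp, and 51.60 at 3711 bp beyond its end. Rarg had 4 peaks with scores between 50.31 and 61.42. Besides the start peak, that at chr15:102245985-102246573 (61.42, 589 bp wide, midpoint at 11238 bp) lay in an exon of another transcript, 221 bp downstream of an internal start. That at chr15:102243354-102243891 (53.91) lay in an intron, at -33 bp from a further annotated start. That at chr15:102235238-102236037 (54.34, 800 bp wide, midpoint at 21880 bp) lay in exon 10 of 10 and covered 789 bases of 3′ UTR. Peaks thus lay near 3 annotated starts of Rarg and in its last exon, all below the list's median score. Ccnd2 had an intron peak of 66.08 besides its start peak. Sohlh2, a helix-loop-helix factor that opens differentiation, and Dmrt1, a DM-domain factor that controls the entry into meiosis, had 1 weak downstream peak each (54.71 and 51.60, the latter inside Dmrt3). Sohlh1, the partner of Sohlh2, had 0.

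Coding sequence was overlapped by a peak in 13 of 32 genes (40.6%), against 29.4% of coding genes. The covered share of the coding sequence was 55.9% in Id4, 54.4% in Egr4, 51.2% in Utf1, 46.3% in Sall4, 25.5% in Epcam, 24.1% in Shisa6 and 21.7% in Zbtb16, and 11.2% or less in the other 6. In 9 genes at least 150 coding bases lay inside and 150 outside peaks, and GC content was higher inside in 6 of the 9, against 86.4% of 4195 coding genes compared in the same manner. It was 65.9% inside and 47.1% outside in Itga6, and 58.9% and 48.0% in Epcam. In Id4, whose coding sequence is GC-rich throughout, it was 66.3% inside and 77.9% outside. Egr4 (70.0% and 71.9%) and Egr2 (58.0% and 58.5%) were also lower inside. The median difference, inside minus outside, was 1.45 percentage points in these 9 genes and 4.69 over the 4195.

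The coding stretches that follow are shown because in these 4 genes the midpoint of a peak itself falls in coding sequence of the selected transcript, with at least 150 coding bases under the peak. Each has 150 bases 5′ to 3′ on the coding strand (GRCm38), with CG in capitals.
Sall4, exon 2, chr2:168754618-168754767, GC 65.3%, 7 CG, peak score 102.2: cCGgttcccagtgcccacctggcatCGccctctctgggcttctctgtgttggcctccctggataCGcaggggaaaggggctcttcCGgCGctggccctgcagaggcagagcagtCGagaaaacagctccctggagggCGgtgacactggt
Zbtb16, exon 2, chr9:48831806-48831955, GC 63.3%, 4 CG, peak score 54.29: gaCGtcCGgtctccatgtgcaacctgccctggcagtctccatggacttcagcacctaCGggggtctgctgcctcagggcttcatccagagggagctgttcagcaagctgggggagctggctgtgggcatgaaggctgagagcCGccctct
Epcam, exon 4, chr17:87640305-87640454, GC 59.3%, 11 CG, peak score 50.35: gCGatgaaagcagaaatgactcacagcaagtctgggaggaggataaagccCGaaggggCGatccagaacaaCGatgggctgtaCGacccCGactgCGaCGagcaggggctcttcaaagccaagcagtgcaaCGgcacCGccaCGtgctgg
Shisa6, exon 1, chr11:66525334-66525483, GC 61.3%, 14 CG, peak score 72.79: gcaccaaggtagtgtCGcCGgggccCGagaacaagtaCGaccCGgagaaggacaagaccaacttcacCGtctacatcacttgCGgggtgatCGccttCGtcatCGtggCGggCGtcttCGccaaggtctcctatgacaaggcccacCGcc

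The count of CG differed between these stretches from 4 to 14. Each score belongs to a whole peak wider than the stretch shown, so counts and scores were not compared. The other exon peak of Sall4, of 92.65, meets the same rule and is not shown.

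Downstream flanks held 7 peaks in 6 genes, and 4 of the 7 lay inside another coding gene, so they cannot be told apart from peaks of that gene. Besides Mypop and Dmrt3 this was Fbxo41, near whose start lay the peak 8512 bp beyond Egr4 (108.6 at chr6:85502051-85503168), the only flank peak above the upper quartile of the list.

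The 7 genes without a peak within 10 kb were Bcl6b, Cdh1, Dazl, Dnd1, Pou5f1, Sohlh1 and Uchl1. Absence is common, since 32.1% of coding genes had 0. The nearest peak midpoint lay 91.5 kb from the start of Dazl, 88.0 kb from Bcl6b, 79.98 kb from Cdh1 and 70.0 kb from Uchl1. These 4 genes lie in wide stretches without peaks, as only 3.67% of coding genes had their nearest peak farther away than Dazl and 6.40% farther than Uchl1. For Sohlh1, Pou5f1 and Dnd1 the distance was 31.999, 22.9 and 21.8 kb, below the median of 33.9 kb over the 7050 coding genes without a peak.

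A second list of 42 genes of the spermatogonial niche, receptors, paralogues and differentiation was compared in the same way. A start-site peak was found at 20 of the 42 (47.6%, against 23.0% of all coding genes), an exon peak in 18 (42.9% against 17.4%) and an intron peak in 16 (38.1% against 28.0%). An upstream peak was found at 8 of the 42, at the level of all coding genes (18.9%). Had each the share of its first-exon GC class, they would have 11.7 start-site peaks (27.9%). Among ligands, GDNF's own gene Gdnf had a start score of 72.05, Kitl, which encodes the KIT ligand, 93.52, Cxcl12 165.9 and Bmp4 62.79. Among transcription factors the start scores were 145.8 at Pax7, 126.9 at Id3, 154.5 at Etv4, 90.17 at Foxo1, 86.87 at Sall1, 78.75 at Lhx1, 62.19 at Eomes, 58.32 at Tcf3, 56.81 at Dmrtb1, 52.92 at Pou3f1 and 52.46 at Etv1. The remaining genes were Ddx4, the germ cell RNA helicase (98.24), Nanos1 (95.54), Mcam (94.45), Crabp1 (65.55) and Gfra3 (53.84). Whether the 2 lists differ was not tested.

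Paralogues are set side by side here by the start of the gene record. All 4 Egr genes had a peak in an exon or at the start, with a highest score of 215.3 in Egr3, 172.7 in Egr4, 130.8 in Egr2 and 56.51 in Egr1. Over all coding genes, 23.0% had a start-site peak and 17.4% an exon peak. Among the Id genes, Id3 and Id4 had a start peak (126.9 and 92.61) with 100% and 55.9% of their coding sequence under peaks, while Id1 had 0 peaks and Id2 only a flank peak. Nanos1 had 2 start peaks covering 96.1% of its coding sequence, where Nanos2 and Nanos3 had 0% covered. Etv4 (154.5) and Etv1 (52.46) had a start peak and Etv5 had none. Of the D-type cyclin genes only Ccnd2 had a peak midpoint within 1 kb of the gene record start (126.3). Ccnd1 had upstream peaks of 156.2 and 127.4, with midpoints at -1553 and -3306 bp, the first reaching to -998 bp. Of the retinoic acid receptor genes Rarg alone had a peak midpoint within 1 kb of the gene record start, with a score of 50.31. Other annotated starts carried peaks of higher score. A Rara peak of 86.05 lay 143 bp from one, and a Rarb peak of 68.11 lay 146 bp downstream of the selected transcript's start. All 4 Gfra genes had a peak in the body or at the start, with a highest score of 168.3 in Gfra4, 146.4 in Gfra1, 92.36 in Gfra2 and 68.63 in Gfra3. Such a peak was present at 49.3% of all coding genes, and 4 genes are too few to read a family trait from it. Both Sohlh genes lacked a peak in their bodies.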

How the data were processed

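The data are the peak list of 1 H1t immunoprecipitation library. The submitters' processing notes name Bowtie 1.1.2 and the mm10 build. No source used here names the peak caller, its threshold or how the input entered, though peak names have the form that MACS writes. The deposited file gives each peak's chromosome, start, end, name and score, the score being the authors' own. Depth is unknown, so no counting interval is given.

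Positions are counted from 1. Peaks were assigned by midpoint to gene records of GENCODE M21 on chromosomes 1 to 19, X and Y; a selected transcript per gene (APPRIS principal, then CCDS, basic set and length) gave exon numbers, coding bases and GC content. Start-site sequences are from RefSeq (GRCm38.p6). The genes, the related list and the alternatives were chosen with earlier results of these data known; first-exon GC content, coding sequence under peaks and the start of a selected transcript were added after the files were seen. By the rule for named genes, start and exon peaks are given with position, width, score and distance; the 5 densest genes, the 5 highest-scoring peaks, the genes without a peak and the related genes with a start-site peak are named; genes with intron or flank peaks only are given in full where a score passes the list's upper quartile. The planned comparison by GC content of RefSeq start-site sequences was void. Coding bases under peaks are taken from the selected transcript, and covered shares from all transcripts. Assignment was tested on simulated data. Scripts ran under Python 3.11.15 with numpy 2.4.6 and pandas 2.3.3, and figures were drawn with matplotlib 3.10.9.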

Additional observations from a re-analysis of the deposited data

How the results depend on the processing

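The score threshold moved the counts most. With peaks above the list's median score, the genes with a start-site peak went from 12 to 7, with an exon peak from 6 to 3, with an intron peak from 13 to 6, with a flank peak from 6 to 1 and with any peak from 25 to 14, and the related genes with a start-site peak from 20 to 11. The share of coding genes with a start-site peak went from 23.0% to 10.4%. Above the median score it was 7.54% for exon peaks, 16.3% for intron peaks, 19.2% for flank peaks and 42.4% for any peak. The 14 of 32 genes with any peak were thus near the share of coding genes. With overlaps of at least 1 bp, genes with an intron peak numbered 8, since wide peaks then count under the start or an exon. The larger intron share than among coding genes narrowed to 31.2% against 28.0% with basic transcripts, to 25% against 23.2% with overlaps and to 18.8% against 16.3% above the median score. The start-site share stayed above that of coding genes, at 21.9% against 10.4% above the median score and 40.6% against 23.6% with basic transcripts. Genes with an upstream peak, counted apart after the files were seen, went from 0 to 1 with overlaps and to 3 with basic transcripts. All other alternatives kept each count within 1.5 times. Genes with a start-site peak numbered 8 of 32 with a window of 500 bp, against 18.2% of coding genes, where the gap was narrowest. They numbered 14 with 2000 bp (26.8% of coding genes) or with overlaps (24.7%). With basic transcripts or the start of a selected transcript there were 13 (23.6%), and with any annotated start 16 (30.0%). Basic transcripts removed the start-site peaks of Ccnd2 and Lin28b and added those of Egr2, Gfra1 and Itga6. No library could be left out, since there is 1.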
